A study of Mus musculus with 18 samples.

Results

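The genes described here are 42 genes of the motile cilium, chosen by symbol as a marker set for the multiciliated cells of the efferent ducts, out of 53819 gene entries in the deposited tables. All 42 were found, and all 42 were among the 18618 genes that passed the filter on low counts. They were measured by RNA sequencing in 18 libraries of the caput epididymis of C57BL/6J mice, in 6 groups of 3. At 10 weeks the groups were Control, 6% EtOH and 10% EtOH. The other 3 groups carried the same treatments followed by a cessation period (Control-Cessation, 6% EtOH-Cessation and 10% EtOH-Cessation); the title of the series gives 1 month for it. The labels used here state neither the route of ethanol, nor the length of treatment before cessation, nor the age of the animals. Each library title holds its own identifier, read here as an animal number. The labels name no transgene, pooling or litter, and p-values measure only the spread between these samples, part of which may be technical.

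Motile cilia are hair-like extensions built on a ring of paired microtubules around a central pair. Dynein motors on the outer pairs slide them against each other, and radial spokes, the nexin-dynein regulatory complex and the central apparatus turn that sliding into a beat. In the male tract, multiciliated cells line the efferent ducts, which join the testis to the caput epididymis, and their beating stirs the fluid that carries sperm. Sperm flagella share much of the same structure, so many of these genes are also transcribed in developing sperm in the testis. Foxj1 and the RFX factors are the main transcription factors of the motile cilium programme.

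The start of the members' promoters is shown first. Any link between these sequences and the levels across libraries described below was not tested. RFX factors bind the short motif GTTGCC, which reads GGCAAC on the other strand. In windows of 250 bases before to 50 after the start of each gene (RefSeq, GRCm38.p6), this motif was present on either strand in 17 of the 33 members with an entry, or 51.5%. It was present in 15.2% of the 12838 tested genes with an entry and in 14.1% of all 27025 genes of the table. Counted by window rather than by gene, 46.2% of the 39 windows of the members and 12.5% of all 32851 windows held it. The other motile cilium genes examined held it in 33 of 70 cases (47.1%), and genes of intraflagellar transport and the primary cilium in 20 of 42 (47.6%). A pair of these motifs facing each other 0 to 3 bases apart, which by construction overlaps the single motif, was in 0 of the 33 members and in 0.226% of tested genes. The forkhead core TGTTTAC, which shares only the letters GTT with the RFX motif, was in 2 members (Ak7 and Cfap43, 6.06%) and in 3.24% of tested genes. In 9 of the 33 members (27.3%) an RFX motif lay within the last 40 bases before the start, against 2.62% of tested genes, a distance set after the matches were seen. These 9 are shown as the 60 bases before the start, 5′ to 3′ on the strand of the gene, with the RFX motif in capitals. A match is a description of letters and does not show binding.
Ccdc113, chr8:95534040-95534099, plus strand: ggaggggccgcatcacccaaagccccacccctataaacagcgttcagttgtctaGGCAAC
Cfap44, chr16:44394739-44394798, plus strand: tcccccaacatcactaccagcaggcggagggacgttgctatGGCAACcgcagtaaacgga
Drc1, chr5:30281333-30281392, plus strand: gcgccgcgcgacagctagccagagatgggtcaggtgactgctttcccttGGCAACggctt
Enkur, chr2:21205366-21205425, minus strand: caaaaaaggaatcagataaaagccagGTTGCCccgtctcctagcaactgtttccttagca
Hydin, chr8:110266917-110266976, plus strand: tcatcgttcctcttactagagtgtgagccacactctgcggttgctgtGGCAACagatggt
Iqcg, chr16:33056187-33056246, minus strand: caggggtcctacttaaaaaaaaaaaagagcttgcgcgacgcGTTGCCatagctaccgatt
Pifo, chr3:106001498-106001557, minus strand: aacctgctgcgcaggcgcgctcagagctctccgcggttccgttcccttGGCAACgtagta
Tekt1, chr11:72361883-72361942, minus strand: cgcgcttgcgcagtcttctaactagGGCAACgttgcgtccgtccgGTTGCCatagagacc
Tekt2, chr4:126325689-126325748, minus strand: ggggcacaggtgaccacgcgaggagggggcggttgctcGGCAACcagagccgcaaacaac

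Between 10.7M and 21.1M reads were assigned to genes in a library. The members received between 2 and 2952 reads in a library, with a median of 68, so the least abundant of them rest on few reads in some libraries. Levels below are CPM, counts scaled to the TMM-normalised library size, and a mean level of the list is the mean over its genes of log2(CPM + 0.5) minus each gene's own mean over the 18 libraries. The animal number in the title of 6% EtOH-Cessation replicate 1 differs from that in the heading of its table, so its animal of origin is unsure, and results that rest on it are given with and without it. Replicate 3 of the 10% EtOH group at 10 weeks carries an identifier of another kind from the other libraries of its dose.

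The members were high together in a few libraries, and these did not follow a single treatment. Their mean level was highest in 6% EtOH-Cessation replicate 1 (1.58), followed by Control-Cessation replicate 3 (0.72), 6% EtOH-Cessation replicate 2 (0.64) and Control at 10 weeks replicate 3 (0.29). It was lowest in 10% EtOH at 10 weeks replicate 1 (-0.58), next to Control-Cessation replicate 2 (-0.55) and 10% EtOH at 10 weeks replicate 2 (-0.53). Both the second highest and the second lowest library therefore came from the Control-Cessation group. In 6% EtOH-Cessation replicate 1, 37 of the 42 members (88.1%) had their highest value of all 18 libraries, against 14% of all tested genes. There, 32 members (76.2%) exceeded 2 times the median of the other 17 libraries, against 17.3% of all tested genes. For 28 members (66.7%), at least 3 of their 4 highest libraries were among the 4 just named, against 12.7% of all tested genes. All 4 libraries, 6% EtOH-Cessation replicate 1 among them, were picked by the members' own mean. All of these counts therefore describe the pattern and test nothing. In bulk tissue, more ciliated cells and more RNA per ciliated cell cannot be told apart.

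**Figure D1:**
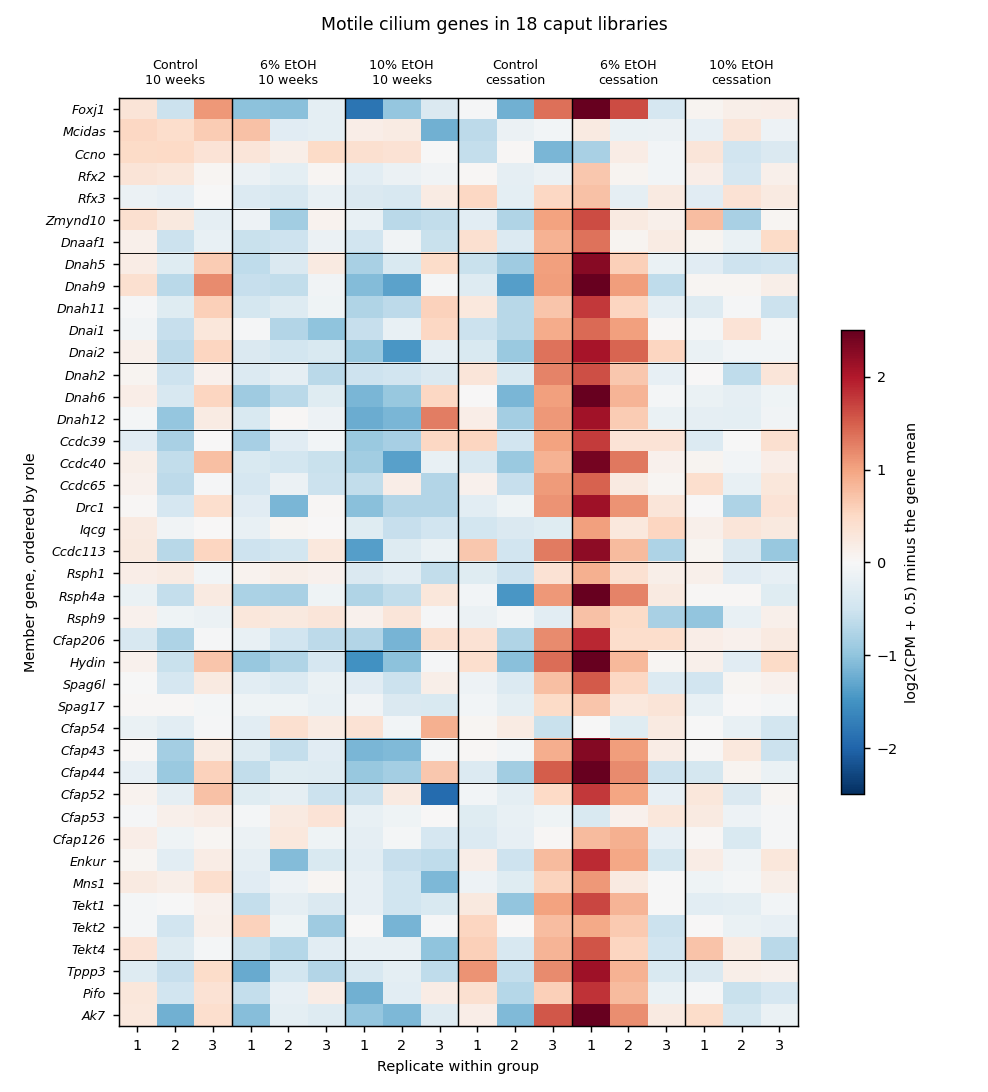
Level of each of the 42 members (rows, ordered by role) in each of the 18 libraries (columns, 3 per group), as log2(CPM + 0.5) minus the gene's mean; colours stop at 2.5 either side of 0. Most rows are reddest in 6% EtOH-Cessation replicate 1 and raised in Control-Cessation replicate 3. Ccno, Cfap53 and Cfap54 are among the exceptions.

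By group, the mean level of the list was 0.00 ± 0.33 (SD, n = 3) in Control, -0.30 ± 0.09 in 6% EtOH and -0.42 ± 0.23 in 10% EtOH at 10 weeks. After cessation it was 0.06 ± 0.64 in the control group, 0.72 ± 0.82 at 6% EtOH and -0.06 ± 0.07 at 10% EtOH. The spread within the Control-Cessation and 6% EtOH-Cessation groups was thus several times that within the 10% EtOH-Cessation group, whose libraries were all near 0.

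Among the regulators, Foxj1, the master transcription factor of motile cilia, varied most. Its CPM at 10 weeks was 11.5, 6.07 and 19.8 in Control, 4.20, 4.12 and 7.53 in 6% EtOH, and 2.21, 4.42 and 6.95 in 10% EtOH. After cessation it was 8.89, 3.68 and 24.3 in the control group, 67.3, 29.3 and 6.69 at 6% EtOH, and 9.48, 10.1 and 10.2 at 10% EtOH. The highest library was 30.5 times the lowest, and in every comparison between groups the Foxj1 values overlapped. Ccno, cyclin O, which drives the mass production of centrioles in multiciliated cells, had another pattern. Its CPM at 10 weeks was 70.7, 71.5 and 64.1 in Control, 63.1, 55.9 and 70.5 in 6% EtOH, and 67.2, 64.9 and 50.3 in 10% EtOH. After cessation it was 33.4, 52.0 and 22.6 in the control group, 28.6, 57.5 and 48.5 at 6% EtOH, and 62.4, 36.3 and 39.3 at 10% EtOH. Ccno was lowest in Control-Cessation replicate 3 and next lowest in 6% EtOH-Cessation replicate 1, the libraries with the second highest and the highest mean level of the list. Mcidas, a coregulator that commits cells to the multiciliated fate, ranged from 0.412 to 2.99 CPM and was highest in 6% EtOH at 10 weeks replicate 1. Rfx2 and Rfx3, transcription factors of ciliary genes, were highest in 6% EtOH-Cessation replicate 1, at 15.2 and 19.9 CPM, which was 1.72 and 1.93 times the median of the other 17 libraries.

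Zmynd10 and Dnaaf1 help to preassemble dynein arms in the cytoplasm. In 6% EtOH-Cessation replicate 1 they reached 4.66 and 8.28 CPM, or 4.58 and 3.18 times the median of the others. Dnah5, Dnah9 and Dnah11 are motor heavy chains of the outer dynein arm, and Dnai1 and Dnai2 are its intermediate chains. Dnah5 at 10 weeks had 16.9, 11.8 and 23.3 CPM in Control, 9.29, 11.4 and 17.3 in 6% EtOH, and 8.22, 11.2 and 20.6 in 10% EtOH. After cessation it had 9.84, 7.72 and 30.6 CPM in the control group, 73.8, 22.6 and 13.1 at 6% EtOH, and 12, 10.2 and 10.4 at 10% EtOH. Each 6% EtOH-Cessation library lay above each 10% EtOH-Cessation library for this gene, by little in replicate 3. Dnah9 (2.21 to 49.2 CPM) and Dnah11 (10.6 to 62.9 CPM) were also highest in 6% EtOH-Cessation replicate 1, but their 6% and 10% EtOH-Cessation groups overlapped. The inner-arm heavy chains Dnah2, Dnah6 and Dnah12 also peaked in 6% EtOH-Cessation replicate 1, at 12.3, 54.6 and 26.4 CPM. For Dnah6 this was 9.36 times the median of the others, more than for any other member.

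Ccdc39 and Ccdc40 form the molecular ruler that spaces the arms and spokes, and Drc1, Ccdc65 and Iqcg belong to the nexin-dynein regulatory complex between the microtubule pairs. Ccdc40 had 4.56, 2.47 and 7.16 CPM in Control, 2.99, 2.84 and 2.60 in 6% EtOH, and 2.01, 1.27 and 3.54 in 10% EtOH at 10 weeks. After cessation it had 2.96, 1.90 and 7.86 CPM in the control group, 23.5, 10.9 and 4.43 at 6% EtOH, and 4.31, 3.83 and 4.61 at 10% EtOH. Ccdc113, an axonemal protein grouped here with that complex, went from 0.201 to 8 CPM. Iqcg varied less over the libraries than the other genes of this role. Its CPM at 10 weeks was 7.54, 5.96 and 6.47 in Control, 5.60, 6.61 and 6.47 in 6% EtOH, and 5.06, 4.15 and 4.42 in 10% EtOH. After cessation it was 4.51, 4.84 and 5.09 in the control group, 13.5, 7.74 and 9.51 at 6% EtOH, and 7.02, 8.03 and 7.63 at 10% EtOH. All 10% EtOH libraries were below all Control libraries at 10 weeks, and all 6 EtOH libraries were above all controls after cessation. In the GENCODE vM21 annotation, 48.1% of the exon bases of Iqcg overlap Lrch3 on the opposite strand. The strand setting of the counting is not given in these sources, so reads of the shared exons cannot be told apart. Lrch3 had 30.1, 24.9 and 30.3 CPM in the control group after cessation, 29.8, 20.7 and 29.6 at 6% EtOH, and 18.8, 28.1 and 29.6 at 10% EtOH, and these groups overlapped.

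The radial spoke genes differed in how far they rose in 6% EtOH-Cessation replicate 1. Rsph4a, a spoke head protein, had 4.05, 2.87 and 5.43 CPM in Control, 2.42, 2.38 and 4.20 in 6% EtOH, and 2.51, 2.81 and 5.66 in 10% EtOH at 10 weeks. After cessation it had 4.33, 1.35 and 10.2 CPM in the control group, 29.5, 11.5 and 5.46 at 6% EtOH, and 4.64, 4.65 and 3.60 at 10% EtOH. In 6% EtOH-Cessation replicate 1 it was at 7.02 times the median of the others. Rsph1, also of the spoke head, was more abundant and steadier, from 8.54 to 24.9 CPM, and Rsph9 ranged from 1.86 to 7.30 CPM. Both were highest in that same library, at 1.77 and 1.80 times the median. Cfap206, which serves spoke and central pair docking, reached 13.6 CPM there.

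Hydin, a giant protein of the central apparatus, followed the common pattern. Its CPM at 10 weeks was 11.1, 6.86 and 17 in Control, 5.09, 5.92 and 7.6 in 6% EtOH, and 3.31, 4.82 and 10.1 in 10% EtOH. After cessation it was 14, 4.72 and 27.9 in the control group, 60.7, 18.5 and 10.7 at 6% EtOH, and 11.3, 8.33 and 14.5 at 10% EtOH. Spag6l and Spag17, of the same apparatus, were highest in 6% EtOH-Cessation replicate 1 at 12.8 and 10.1 CPM. Cfap54, another central apparatus protein, was not high there. Its CPM at 10 weeks was 83.0, 78.0 and 91.1 in Control, 77.7, 124 and 107 in 6% EtOH, and 120, 88.8 and 174 in 10% EtOH. After cessation it was 97.0, 108 and 62.9 in the control group, 92.7, 75.1 and 109 at 6% EtOH, and 92.3, 81.7 and 67.3 at 10% EtOH. Cfap54 was therefore lowest in Control-Cessation replicate 3, the library with the second highest mean level of the list. Cfap43 and Cfap44, which tether an inner dynein, reached 23.9 and 41.5 CPM in 6% EtOH-Cessation replicate 1, or 5.55 and 7.87 times the median.

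Proteins inside the microtubules, which stiffen the axoneme, made up 8 members. Tekt1, Tekt2, Tekt4, Enkur, Mns1 and Cfap52 were highest in 6% EtOH-Cessation replicate 1, at 2.35 to 4.98 times the median of the others. Cfap126 was highest in replicate 2 of that group (14.6 CPM) and next in replicate 1 (13.5 CPM), with 6.5 CPM in replicate 3 and 5.60 to 9.17 CPM in all other libraries. Cfap53 was the reverse: its level in 6% EtOH-Cessation replicate 1, 22.4 CPM, was the lowest of the 18 libraries, which reached 37.4 CPM. Of the exon bases of Mns1, 53% overlap Tex9 on the opposite strand, so the counts of Mns1 carry the same uncertainty as those of Iqcg. Other members had smaller overlaps on the opposite strand, the largest in Tekt2 (20.8%), Dnaaf1 (20.7%) and Ccdc39 (16.9%). Tppp3, a tubulin-binding protein, Pifo, a protein of the cilium base, and Ak7, an adenylate kinase of the cilium, made up the remaining role. They reached 21.9, 5.56 and 23.1 CPM in 6% EtOH-Cessation replicate 1, at 6.24, 5.37 and 8.85 times the median.

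**Figure D2:**
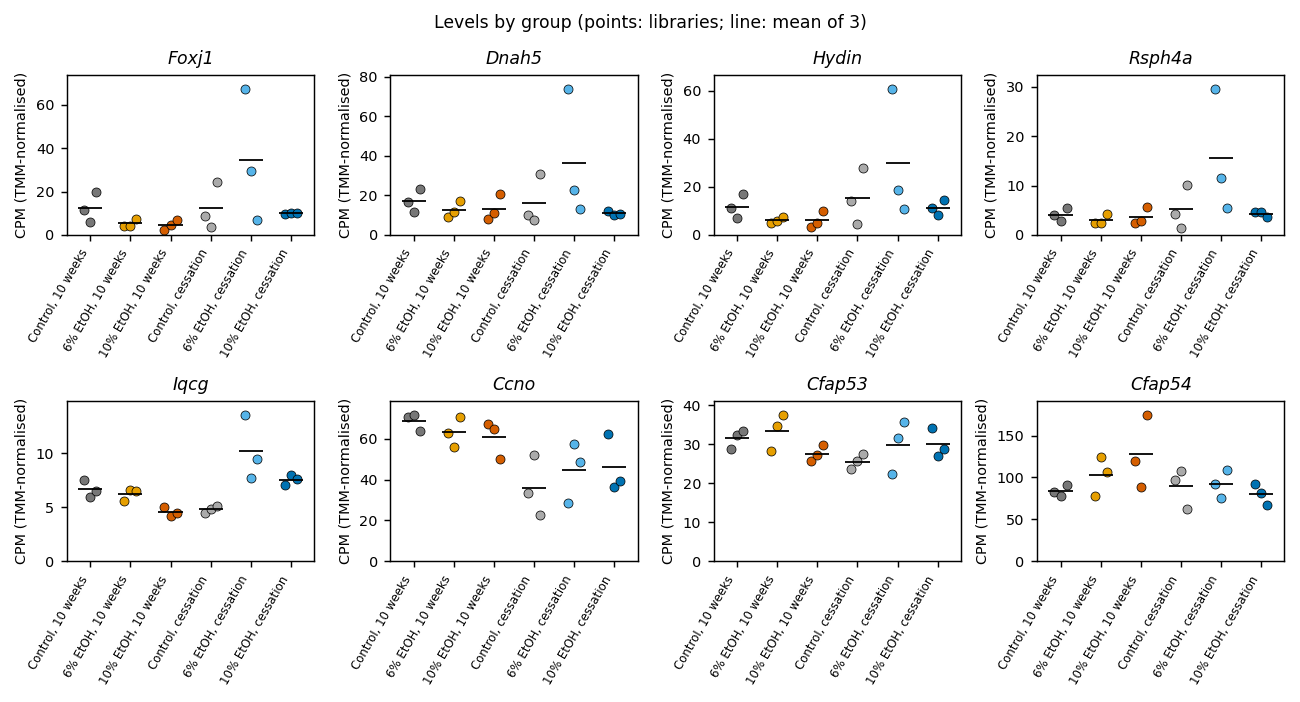
CPM (vertical axis, from 0) of 8 members in the 6 groups; each point is 1 library in replicate order and the line is the mean of 3. Foxj1, Dnah5, Hydin and Rsph4a share a peak in 6% EtOH-Cessation replicate 1, Iqcg in both EtOH groups lies above Control after cessation, and Ccno, Cfap53 and Cfap54 lack that peak.

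Ccno, Cfap53 and Cfap54, which lacked the peak, were among the most abundant per length of exon. Mean CPM per kb over the libraries was 20.9 for Ccno, 11.4 for Cfap53, 9.99 for Rsph1 and 6.56 for Cfap54, and Foxj1 was next at 5.01. Lengths from GENCODE vM21 were matched for 40 of the 42 members, not for Dnai1 and Dnai2. Of the 4 most abundant, the ratio of 6% EtOH-Cessation replicate 1 to the median of the others was 0.497, 0.774, 1.77 and 1.02 in the same order. Mcidas also lacked a clear peak at a low level, with a mean of 0.717 CPM per kb and a ratio of 1.35.

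**Figure D3:**
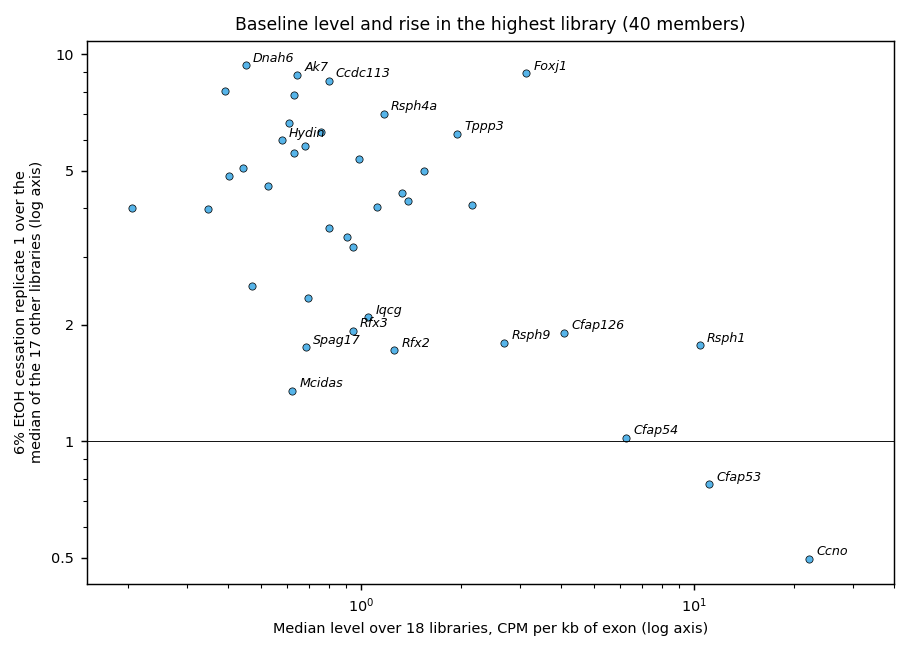
Ratio of 6% EtOH-Cessation replicate 1 to the median of the 17 other libraries (vertical log axis) against the median level in CPM per kb of exon (horizontal log axis); each point is 1 of 40 members with a known length. Ccno, Cfap53 and Cfap54 lie at or below a ratio close to 1 at the right, Foxj1 combines a high level with a ratio of 8.93, and Dnah6 has the highest ratio, 9.36.

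Other genes of the motile cilium followed the members. Of 85 such genes tested, 64 (75.3%) were highest in 6% EtOH-Cessation replicate 1, and their mean level was 1.23 there, 0.70 in Control-Cessation replicate 3 and 0.49 in 6% EtOH-Cessation replicate 2. The 5 most abundant of them were not high in that library, with the exception of Dnal1, a dynein light chain (34.2 CPM there, and 19.2 to 28.5 elsewhere). Tubb4b, a tubulin, had 130 CPM there against 94.9 to 164 elsewhere, and Cfap20, E2f4 and Rsph3b had 21.6, 20.9 and 15.9 CPM. Genes of intraflagellar transport and the primary cilium, which also serve cilia that do not beat, stayed within -0.05 to 0.19 in mean level in all 18 libraries, with the highest value in 6% EtOH-Cessation replicate 1.

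Some markers of other cell types were also high or low in these libraries. Among 11 tested genes of the absorptive cells of the efferent ducts, the water channel Aqp1 had 161, 162 and 70.5 CPM in 6% EtOH-Cessation replicate 1, Control-Cessation replicate 3 and 6% EtOH-Cessation replicate 2, and 10.5 to 47.6 CPM in the other 15. The sodium exchanger Slc9a3 had 17.2, 5.94 and 5.25 CPM in the same 3 libraries, and 0.858 to 4.39 CPM in the others. The endocytic receptor Lrp2 had 285, 91.9 and 89.3 CPM there and 47.4 to 125 CPM in the others, with 125 in Control at 10 weeks replicate 3. Of the more abundant genes of that list, the oestrogen receptor Esr1 was highest in 6% EtOH-Cessation replicate 1 (166 CPM, and 82.5 to 136 in the others). Dab2, Slc4a4 and Pax8 were not, at 432, 101 and 112 CPM there. The mean level of that list was 0.77 in 6% EtOH-Cessation replicate 1 and -0.30 to 0.25 in the other libraries. Genes typical of initial segment and proximal caput cells had their lowest mean levels in 6% EtOH-Cessation replicate 1 (-1.21) and Control-Cessation replicate 3 (-1.09), with 0.02 in 6% EtOH-Cessation replicate 2. Genes of caput principal cells had -0.99, -0.91 and -0.01 in those libraries. Late spermatid and sperm genes had 0.67, 0.87 and -0.03, and -0.70 in Control at 10 weeks replicate 3, the fourth library of the members' order. Of the testis somatic markers, Insl3 reached at most 0.132 CPM and Hsd17b3 was at 0 in all 18 libraries. Hsd3b6 and Amh reached at most 0.264 and 0.696 CPM. Others were detected in every library: Cyp17a1 (2 to 9.34 CPM), Star (2.91 to 7.72), Inha (1.87 to 6), Rhox5 (1.05 to 3.82) and Cyp11a1 (0.139 to 1.78). Adipocyte genes were highest in 6% EtOH-Cessation replicate 2 (1.47). The part of these lists in the results on the members was not tested. The label of the set names the efferent ducts, and bulk counts do not show which cells the transcripts came from.

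**Figure D4:**
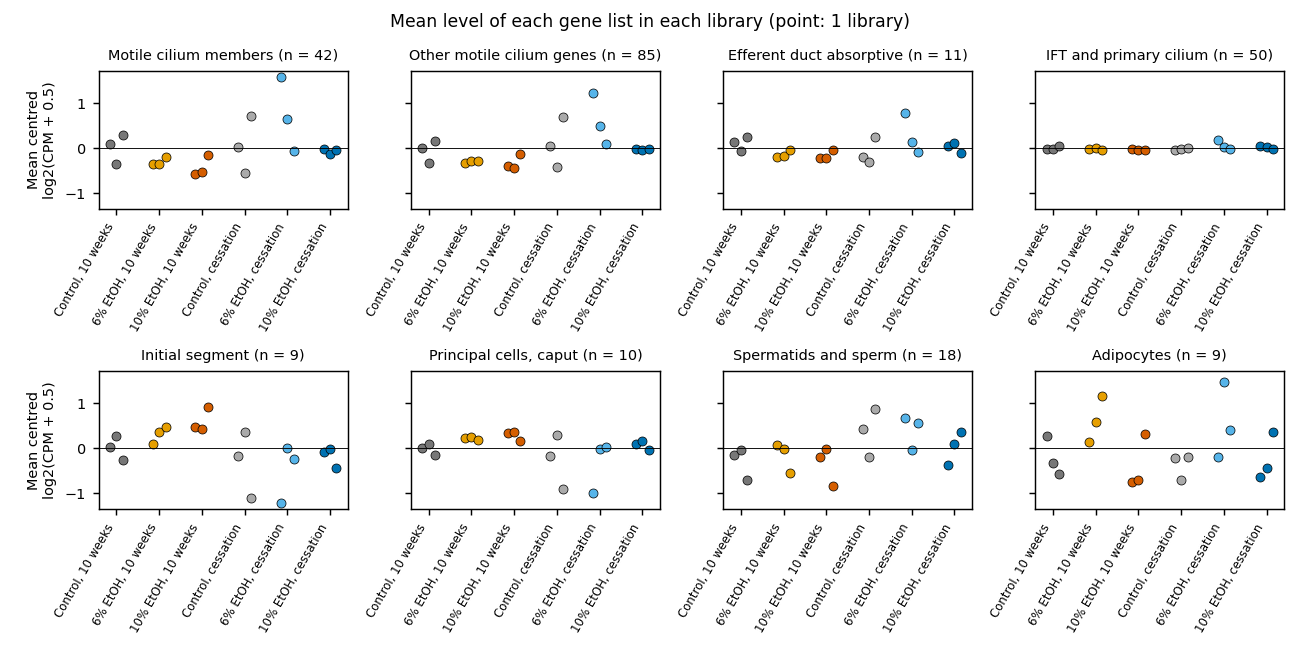
Mean centred log2(CPM + 0.5) of the members and of 7 other gene lists in each library (1 point each), by group. The members and other motile cilium genes share their highest library, the intraflagellar transport list stays near 0, and the initial segment and principal cell lists are lowest in 6% EtOH-Cessation replicate 1 and Control-Cessation replicate 3.

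The comparisons of treatments asked whether ethanol changed these genes while it was given and after it was withdrawn. Each was fitted over all 18618 tested genes with edgeR's quasi-likelihood test and Benjamini-Hochberg adjustment, and a member passed at an adjusted p under 0.05. No member passed in any of the 9 comparisons, and 0 of all tested genes passed in 8 of them. The counts at an unadjusted p under 0.05 are given for each, beside the share of all tested genes in that direction.

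At 10 weeks, 36 of 42 members were below Control at 6% EtOH, with a median log2 fold change of -0.41, against -0.01 over all tested genes. Without Control at 10 weeks replicate 3 this median was -0.20, and it ranged from -0.55 with 1 library left out. No member reached an unadjusted p under 0.05 (0% of all tested genes passed the adjusted threshold, and 1.13% were higher and 1.23% lower at the unadjusted one). Foxj1 had a log2 fold change of -1.24 ± 0.73 (standard error, edgeR adjusted p = 1). Members without overlap between the groups were 4 below Control (9% of all tested genes) and 1 above (9.65%). At 10% EtOH, 36 members again lay below Control, with a median of -0.42 against -0.01 (-0.58 to -0.32 with 1 library left out). The 2 doses were compared with the same 3 Control libraries. At an unadjusted p under 0.05 there were 3 members lower (6.59% of all tested genes) and 1 higher (6.84%), and 0% passed the adjusted threshold. These were Mns1 (-0.94 ± 0.35), Iqcg (-0.55 ± 0.22), Rsph1 (-0.53 ± 0.23) and, higher, Cfap54 (0.60 ± 0.24), with edgeR adjusted p of 0.299, 0.307, 0.329 and 0.310. The groups did not overlap for 8 members, all lower (15.5% of all tested genes). Foxj1 stood at -1.47 ± 0.73 (adjusted p = 0.395 in edgeR). Rsph1, at 14.9, 15.4 and 12.6 CPM in Control and 10.2, 10.9 and 8.54 in 10% EtOH, had an edgeR adjusted p of 0.0458 when only the 10-week libraries were fitted. In that fit 1059 of all tested genes passed at 10% EtOH. Between the doses at 10 weeks, 24 members were lower at 10% and 18 higher, with a median of -0.06 against -0.00. There, 1 member, Rsph1, had an unadjusted p under 0.05, lower (1.19% of all tested genes, with 1.64% higher; 0% passed). Rsph1 and Iqcg had no overlap between the doses, lower (6.39% of all tested genes), and 0 members were higher without overlap (7.23%).

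After cessation, 41 of 42 members were above Control at 6% EtOH, with a median log2 fold change of 0.75 against -0.01 over all tested genes. At an unadjusted p under 0.05, 8 members were higher (0.838% of all tested genes; 0% passed the adjusted threshold). Ccdc40 (1.62 ± 0.56), Rsph4a (1.55 ± 0.61), Dnah6 (1.66 ± 0.69) and Cfap126 (0.78 ± 0.26) were among them, each with an edgeR adjusted p of 1. Without 6% EtOH-Cessation replicate 1, the median was 0.15, 28 members lay above 0 and 14 below, and 3 had an unadjusted p under 0.05. Without Control-Cessation replicate 3 the median was 1.19, and 24 had one. In both of these fits 0 of all tested genes passed the adjusted threshold. Iqcg was the only member whose groups did not overlap (2% of all tested genes were higher without overlap). Its log2 fold change was 1.09 ± 0.22, with an unadjusted p of 8.69e-05 and an edgeR adjusted p of 1. Without 6% EtOH-Cessation replicate 1 it was 0.83 ± 0.22, and the DESeq2 adjusted p over all libraries was 0.0159.

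At 10% EtOH after cessation, 35 of 42 members lay below Control, with a median of -0.30 against -0.02. Without Control-Cessation replicate 3 the median was 0.18, with 31 members above 0, so the direction of the list rested on 1 control library; without Control-Cessation replicate 2 it was -0.59. Iqcg alone had an unadjusted p under 0.05, higher (1.59% of all tested genes, with 5.07% lower; 0% passed), at 0.65 ± 0.22. Its edgeR adjusted p was 0.743, and it was the only member without overlap, higher (2.49%, with 3.97% lower). The 10% group was also compared with the 6% group: 39 of 42 members lay lower at 10%, with a median of -1.05 against -0.02. At an unadjusted p under 0.05, 24 were lower (5.23% of all tested genes; 0% passed) and none higher (2.61%). The groups did not overlap for 8, all lower (5.42%, with 3.17% higher). Dnah6 (-2.07 ± 0.70), Rsph4a (-1.85 ± 0.62), Dnai2 (-1.87 ± 0.65), Dnah5 (-1.75 ± 0.60) and Tekt1 (-1.31 ± 0.44) were among both, each with an edgeR adjusted p of 0.635. Without 6% EtOH-Cessation replicate 1 the median was -0.40, 37 members lay below 0, and 0 had an unadjusted p under 0.05.

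The Control groups of both times were compared because cessation may also mean a later collection, which the labels do not state. Here 22 of all tested genes passed (0.118%), none of them members. Of the members, 28 lay higher after cessation and 14 lower, with a median of 0.26 against 0.05. Without Control-Cessation replicate 3 the median was -0.31, with 31 members below 0, and without Control-Cessation replicate 2 it was 0.54. Ccno had a log2 fold change of -0.93 ± 0.28 and an edgeR adjusted p of 0.116, and it did not overlap between the groups. Mcidas (-1.02 ± 0.48) and Iqcg (-0.47 ± 0.22) were the other members with an unadjusted p under 0.05, all 3 lower (8.14% of all tested genes), and 5 members had no overlap, lower (13.1%). For Ccno, the adjusted p was 0.0288 in DESeq2 and 0.00837 in edgeR without Control-Cessation replicate 2. In those fits 993 and 2730 of all tested genes passed in this comparison.

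The difference of the 6% EtOH effect between the times was above 0 for 40 of 42 members, with a median of 1.19 against 0.00. At an unadjusted p under 0.05 there were 12 members, all above 0 (1.56% of all tested genes, with 1.45% below 0; 0% passed), led by Iqcg (1.19 ± 0.30), Ccdc40 (2.37 ± 0.80) and Foxj1 (2.73 ± 1.01), each with an edgeR adjusted p of 1. Without 6% EtOH-Cessation replicate 1 the median was 0.52 and 2 members had an unadjusted p under 0.05. Without Control-Cessation replicate 3 it was 1.55, and 25 members had one. For the 10% EtOH effect the median difference was 0.11 against -0.03, with 23 members above 0 and 19 below, and it was 0.59 without Control-Cessation replicate 3 and -0.25 without Control-Cessation replicate 2. Iqcg (1.20 ± 0.31), above 0 (3.66% of all tested genes; 0% passed), and Cfap54 (-0.75 ± 0.34), below 0 (3.79%), had unadjusted p under 0.05, with edgeR adjusted p of 0.645 and 0.665. Iqcg was thus lower than Control at 10% EtOH during treatment and higher after cessation without overlap both times, while the test of that difference did not pass.

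**Figure D5:**
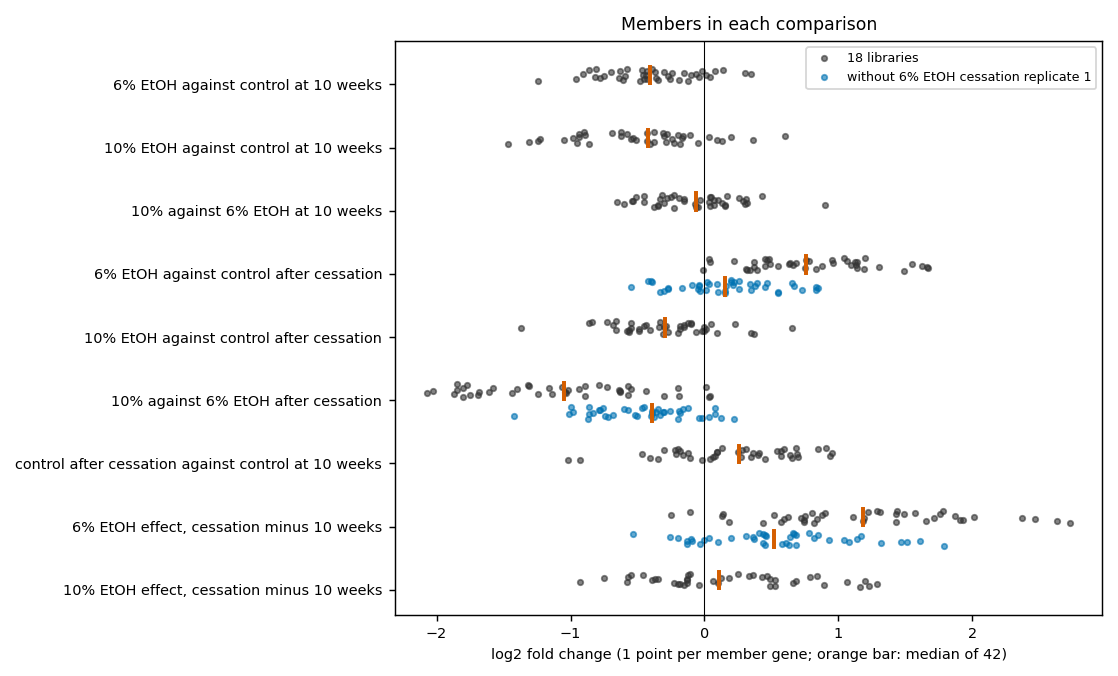
Log2 fold change of each of the 42 members (1 point each) in the 9 comparisons, with the median as an orange bar; black points use all 18 libraries and blue points leave out 6% EtOH-Cessation replicate 1. The median after cessation at 6% EtOH moves from 0.75 to 0.15 without that library, and between the doses from -1.05 to -0.40.

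The calls on these genes depended on the filter on low counts. With no filter, the same test passed 8 members at 6% EtOH after cessation and 17 between the doses after cessation, Foxj1 among them (edgeR adjusted p = 3.07e-07 and 3.11e-11). Over all genes of that fit, 51 and 585 passed in these comparisons. With no filter and without 6% EtOH-Cessation replicate 1, 0 members and 64 of all genes passed in the comparison of 6% EtOH with Control after cessation.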

How the data were processed

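Per the labels, total RNA from 18 caput samples was purified with the RNeasy mini kit (Qiagen) and read on a HiSeq (Illumina). The authors deposited a table of raw gene counts for each library, made with Trimmomatic, STAR and featureCounts on GRCm39 (mm39), per the submitters' processing notes. The sources used here give no versions, annotation release or strand setting.

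Genes were filtered with filterByExpr (minimum count 10, minimum total 15) and scaled by TMM. edgeR 4.0.16 (R 4.3.3) gave robust quasi-likelihood tests over 18 libraries with 1 term per group (common biological coefficient of variation 25.4%), with Benjamini-Hochberg adjustment over 18618 genes. Standard errors are those implied by the test. DESeq2 1.42.0 and limma 3.58.1 served as alternatives. The fitting steps were tested on simulated data. The reference at hand was GRCm38, so it gave only exon lengths, overlaps and promoter windows, and 9 members had no promoter entry.

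The members, the other gene lists, the motifs and the rule for naming were chosen with earlier results of these data known. The rule named up to 3 members of highest mean CPM in each role, the 5 members of smallest p in each comparison, and Foxj1. From other lists it named up to 5 genes of highest mean CPM. Values by library are given for some of these, and only a range, peak or ratio for others. Aqp1, Slc9a3, Insl3, Hsd17b3, Lrch3 and Tex9 were named outside that rule after their values were seen. Hsd3b6 and Amh were also named outside it. Replicates are numbered in order of deposit.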

Additional observations from a re-analysis of the deposited data

How the results depend on the processing

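The mean level of the members in each library moved by less than the spread between replicates without TMM scaling. A minimum mean level of 1 CPM kept all 42 members, so that setting could not change the result. The number of members past the threshold, 0 in every comparison as reported, depended on the model. With no low-count filter it was 1 at 6% EtOH and 4 at 10% EtOH against Control at 10 weeks, 8 at 6% EtOH against Control and 17 between the doses after cessation, 1 between the controls and 8 for the change in the 6% effect. Over all genes of that fit, the counts in the same order were 44, 736, 51, 585, 1740 and 88. limma voom with sample quality weights, an alternative chosen after seeing the data, gave 2 at 10% EtOH at 10 weeks and 9 between the controls. There, 1345 and 7336 of the 18618 tested genes passed. Fitting the 10-week libraries alone gave 1 at 10% EtOH, beside 1059 of all tested genes. DESeq2 gave 1 at 6% EtOH after cessation and 1 between the controls, beside 1 and 993 of all tested genes. With no filter and without 6% EtOH-Cessation replicate 1, also chosen after seeing the data, 1 member and 62 of all genes passed for the change in the 6% effect. The medians were -0.37 between the doses after cessation and 0.49 for that change. The cause of these differences was not tested.

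Leaving out 1 library at a time gave 0 to 1 members between the controls, the 1 in a fit where 2730 of all tested genes passed. The median log2 fold change of the members then ranged from -0.31 to 0.54 between the controls, from -0.29 to 0.00 between the doses at 10 weeks, from -1.43 to -0.40 between the doses after cessation, from 0.52 to 1.55 for the change in the 6% effect and from -0.25 to 0.59 for the change in the 10% effect. With quality weights the median between the doses at 10 weeks was -0.29. Foxj1, uncalled throughout these, changed sign between the doses at 10 weeks (range -0.69 to 0.11, with 0.11 without 10% EtOH replicate 1 and 0.11 without 6% EtOH replicate 3). At 10% EtOH after cessation it was 0.12 with limma voom, 0.15 with quality weights and 0.66 without Control-Cessation replicate 3, in a range from -0.74 with 1 library left out. Between the controls it was 0.47, 0.16 and 0.40 without Control replicate 3 at 10 weeks, Control-Cessation replicate 1 and Control-Cessation replicate 2, in a range from -0.98.

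Over all tested genes, the count past the threshold at 10% EtOH at 10 weeks was 0 as reported, 73 with DESeq2, 736 with no filter, 1059 with the 10-week libraries alone and 1345 with quality weights. At 10% EtOH after cessation it was 0 as reported, 66 with quality weights, 407 with no filter and 191 without Control-Cessation replicate 2. Between the controls it was 22 as reported, 0 with limma voom, 993 with DESeq2, 1740 with no filter, 7336 with quality weights and 0 to 2730 with 1 library left out. In the other 6 comparisons it was 0 as reported and 44 to 585 with no filter. DESeq2 gave 1 at 6% EtOH and 1 between the doses after cessation and 2 for the change in the 10% effect, for which quality weights gave 4. With no filter and without 6% EtOH-Cessation replicate 1 it was 64, 88 and 62 in the comparisons that use that library. No paired analysis was possible because replicates were numbered by accession order, which pairs nothing. Members with few reads, such as Tekt2 with 2 reads in 1 library, carry large counting error.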
